A study of Mus musculus with 4 samples.

Results

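Krt7, Krt8, Krt14, Krt18 and Krt19, the simple and basal keratins taken by gene name, make up 5 of the 54 keratin genes and 5 of the 46078 genes in the count table. Messenger RNA was sequenced from MLE-12, an immortalised mouse alveolar epithelial cell line, in 4 libraries with 1 library per condition. The conditions were wild-type cells unscratched, wild-type cells 24 hours after a scratch wound, cells labelled as Lingo1 knockout unscratched, and cells labelled as Lingo1 knockout 24 hours after a scratch. Lingo1 encodes a neuronal membrane protein that takes part in Nogo receptor signalling, and the series title places the comparison in epithelial wound repair. How the knockout was made, and whether it is a clone or a pool, is not given in the sources used here.

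Keratins are the intermediate filament proteins of epithelial cells, and each filament is built from pairs of a type I and a type II chain. Krt8 and Krt7 are type II chains, and Krt18 and Krt19 are their usual type I partners in simple epithelia such as the alveolar lining. Krt14 is a type I chain of basal cells in stratified and pseudostratified epithelia, where its usual partner is Krt5. Krt8 is also widely used as a marker of the transitional state that alveolar type 2 cells pass through during lung repair.

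All 5 genes lie in the mouse keratin clusters (GENCODE M21, mm10). On chromosome 11 lie Krt19 (ENSMUSG00000020911, 100140810 to 100148665, minus strand) and Krt14 (ENSMUSG00000045545, 100203162 to 100207548, minus strand). Chromosome 15 holds Krt7 (ENSMUSG00000023039, 101411043 to 101430313, plus strand), Krt8 (ENSMUSG00000049382, 101996698 to 102004482, minus strand) and Krt18 (ENSMUSG00000023043, 102028180 to 102032027, plus strand). Krt18 is thus a type I gene within the type II cluster, and its start lies 23.7 kb from that of Krt8, with the genes read away from each other. The longest coding transcripts have 9 exons in Krt7 and Krt8, 8 in Krt14, 7 in Krt18 and 6 in Krt19.

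The family resemblance can be seen where the coiled-coil rod of the protein ends. The 27 coding bases that encode this stretch are shown to compare the members. They were read from the GENCODE transcripts, 5′ to 3′, and capitals mark the positions at which the 5 genes are not all identical.
Krt7: acctaccgcAAGCtgctggaggGCGAG
Krt8: acctaccgcAAGCtgctggaggGGGAG
Krt14: acctaccgcCGTCtgctggaggGAGAG
Krt18: acctaccgcCGCTtgctggaggATGGA
Krt19: acctaccgcAGCCtgctggaggGCCAG
Of the 27 bases, 18 were identical in all 5 genes. The stretch was located by a shared amino acid motif, so part of this identity follows from the choice. Other parts of the coding sequences were not compared among the 5 genes. The type II pair Krt7 and Krt8 shared 26 bases, and Krt18 was the most divergent, with 19 to 21 bases shared with each of the others.

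Similar copies matter for what the counts can hold, because reads that fit several places may be dropped or split, and the handling of such reads is not given in the sources used here. Of the 50-base windows of the longest coding transcript, 29.7% in Krt8 and 14.4% in Krt14 also occurred in an annotated transcript of another gene, against 0.720% in Krt18, 0.222% in Krt7 and 0 of 1527 in Krt19. For Krt8 the main copy was the processed pseudogene Krt8-ps, which held 26.9% of its windows and is not a row of the count table. The longest run shared by Krt8 and Krt8-ps covers 299 bases, from base 385 to 683 of the Krt8 coding sequence. For Krt14 the copies were Krt16 and Krt17, keratins of activated and appendage epithelium, at 11.4% and 3.34% of windows. Krt16 and Krt17 had at most 2 reads in any library. The longest run that Krt14 shares with Krt16 spans 134 bases, from base 306 to 439 of the Krt14 coding sequence, and is shown because a short read from it cannot be placed in 1 gene.
Krt14 and Krt16: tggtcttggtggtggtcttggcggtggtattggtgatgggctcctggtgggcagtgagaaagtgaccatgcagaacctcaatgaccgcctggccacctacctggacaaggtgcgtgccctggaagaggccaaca
An antisense gene overlaps Krt7 and a long non-coding gene overlaps Krt8 on the other strand. Neither is a row of the count table. Copies of these genes outside annotated transcripts were not examined.

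Values are given in the order unscratched wild type, scratched wild type, unscratched knockout-labelled cells and scratched knockout-labelled cells. In that order the libraries held 26903429, 27907279, 29533746 and 48333801 counts. Nothing in the labels names separate cultures. Lingo1 was counted at 46.7, 42.7, 41.3 and 41.3 CPM (counts scaled to library size), so its mRNA does not check the knockout label, and genotypes are given as labelled. The alveolar label was compared with marker genes. Of 10 alveolar type 2 genes, 6 were tested. Sftpa1 and Sftpd had 0 reads in all 4 libraries and Slc34a2 at most 3, and Lamp3 had 3 to 12 reads. Abca3 lay between 165 and 185 CPM and Lpcat1 between 145 and 147.5 CPM. The surfactant genes Sftpb and Sftpc were detected, Sftpb at 25.6, 22.8, 107 and 93.2 CPM and Sftpc at 5.72, 6.38, 20.6 and 19.7 CPM. Of 8 alveolar type 1 genes 7 were tested, among them Cav1 between 1749 and 2027 CPM, Emp2 between 686 and 717.5 CPM, Ager between 395 and 464 CPM and Pdpn between 236 and 312 CPM. The lung factor Nkx2-1 lay between 127 and 164 CPM. Cdh1, the epithelial cadherin, lay between 714 and 855 CPM, but Epcam only between 5.26 and 5.49 CPM, and the mesothelial gene Upk3b lay between 1833 and 1918 CPM. Endothelial and leukocyte markers summed to at most 1.2 and 2.0 CPM.

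Krt19 was by far the most abundant of these keratins and Krt18 was close to undetected. Krt19 stood at 1271, 1245, 1138 and 1228 CPM, from 33597 to 59056 reads per library. Krt8 followed at 249, 257, 329 and 329.9 CPM. Krt14 stood at 43.3, 44.5, 68.8 and 76.7 CPM, and Krt7 at 11.7, 9.99, 10.7 and 10.4 CPM. Krt8 and Krt14 were higher in both knockout-labelled libraries than in either wild-type library, whereas for Krt7 the genotypes overlapped. For Krt19 both wild-type libraries lay above both knockout-labelled ones, the nearest pair being 1245 and 1228 CPM. How many of all tested genes are ordered by genotype in this way was not counted. The order is therefore not read as a trait of these keratins.

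**Figure D1:**
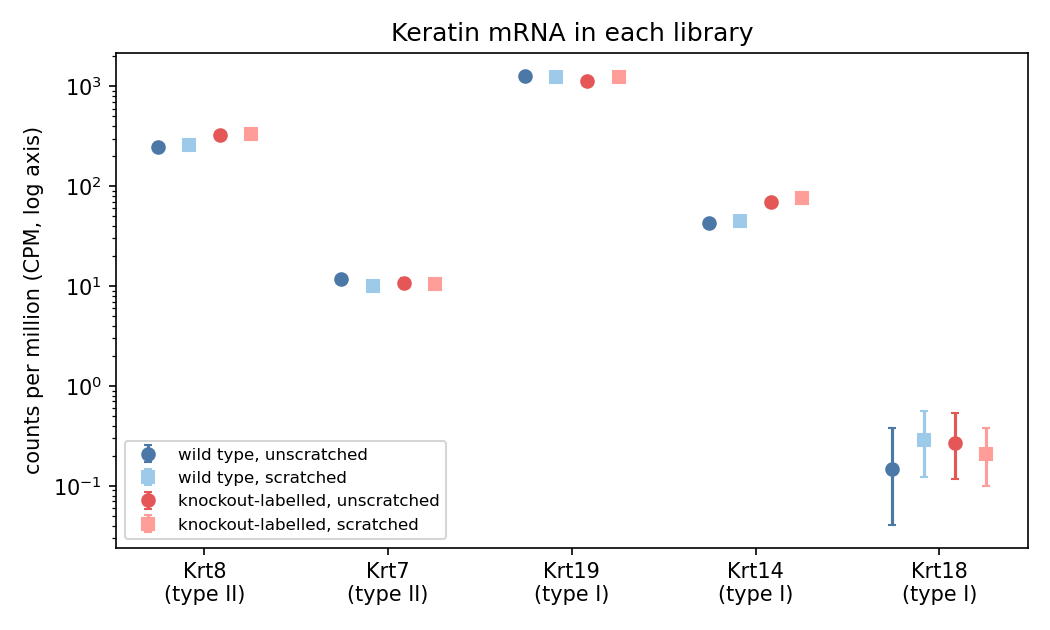
CPM of each keratin on a log axis, with 1 point per library and exact 95% Poisson intervals that cover counting error only (most are smaller than the points). Krt19 lies between 1138 and 1271 CPM, and Krt18 between 0.149 and 0.285 CPM.

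Krt18 was counted with 4, 8, 8 and 10 reads, or 0.149, 0.285, 0.271 and 0.208 CPM. A count of 3 reads, the least that is set apart from 0 here, corresponds to 0.111, 0.107, 0.102 and 0.0624 CPM. No annotated gene overlaps Krt18, and of its copies among annotated transcripts 1, the pseudogene Gm17847, was in the count table, with 0 reads in all libraries. Krt18 therefore did not reach the minimum for testing, 1 CPM in at least 1 library. Its ratios carried wide counting intervals. Unscratched, the knockout-labelled library stood at 1.82 times wild type (95% interval 0.489 to 8.28), and scratched at 0.729 times (0.259 to 2.13). No difference was detectable at this depth.

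Comparison of levels between genes needs values per gene length, for which the authors' RPKM (read counts scaled for gene length and library depth) served. Krt19 stood at 805, 793, 721 and 779 RPKM, Krt8 at 127, 132, 168 and 168 RPKM and Krt14 at 25.4, 26.3, 40.5 and 45.2 RPKM. Krt7 lay between 2.45 and 2.84 RPKM and Krt18 between 0.103 and 0.199 RPKM. In the order of all 14683 genes with an RPKM value, Krt19 ranked 20 or 21 in every library. Krt8 ranked 401 and 406 in wild type and 278 and 284 in knockout-labelled cells, and Krt14 ranked 3109, 3070, 1857 and 1659. Krt7 ranked between 9586 and 9732. The order Krt19, Krt8, Krt14, Krt7, Krt18 held in every library, and neighbours in it lay further apart than their values varied over the 4 libraries.

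Summed by type, type I chains outweighed type II chains in every library. The type I sum (6 genes with RPKM values) was 5.67, 5.29, 4.11 and 4.38 times the type II sum (3 genes). Krt19 made up 82.1%, 81.1%, 75.8% and 76.6% of the sum over both types, Krt8 12.9%, 13.5%, 17.6% and 16.6%, and Krt14 2.59%, 2.69%, 4.25% and 4.44%. Krt14 was thus the second type I chain, at 3.16% of the Krt19 level in unscratched wild type and 5.61% in unscratched knockout-labelled cells. Within type II, Krt8 held 86.2%, 84.9%, 90.2% and 89.0% of the sum, and Krt80, a type II chain found in many epithelia, held most of the rest. If Krt8 reads were lost to its pseudogene copy, the type II sums would be too low. How many were lost was not tested.

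**Figure D2:**
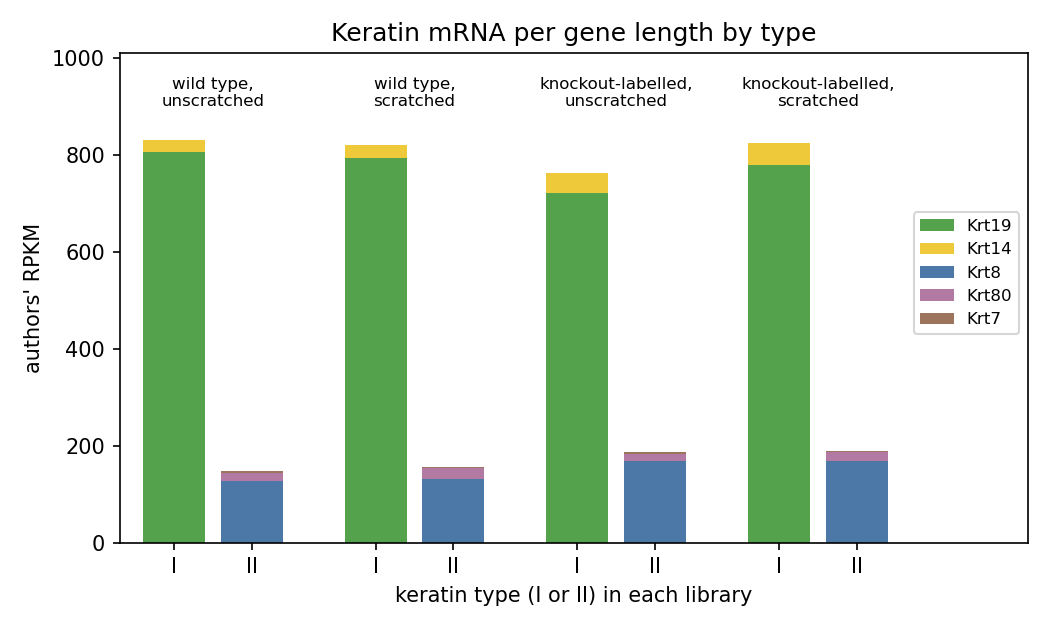
Stacked bars of the authors' RPKM for type I (Krt19, Krt14) and type II (Krt8, Krt80, Krt7) chains in each library, on a linear axis from 0; Krt18 and the other keratins are too low to draw. Krt19 fills nearly all of the type I bar, and the Krt8 part is 127 and 132 RPKM in wild type against 168 RPKM in both knockout-labelled libraries.

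Krt8 and Krt14 were higher in both libraries labelled knockout, and Krt19 and Krt7 were near their wild-type levels. A ratio here is that of CPM between 2 libraries, with an exact 95% Clopper-Pearson interval. The interval reflects counting error alone, because variation between cultures cannot be seen with a single library in each condition. In bulk RNA, fewer cells of a type and less RNA per cell cannot be told apart. Among unscratched cells Krt14 was higher by a factor of 1.59 (95% interval 1.48 to 1.71), and among scratched cells by 1.72 (1.62 to 1.84). The factors for Krt8 were 1.32 (1.28 to 1.37) and 1.28 (1.25 to 1.32). The 2 genotype comparisons share no library, but each shares its libraries with the scratch comparisons.

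Krt19, the main type I chain, stood at 0.896 times its wild-type level without a scratch (0.882 to 0.909) and 0.987 times after it (0.974 to 0.9999). Krt7 stood at 0.921 times (0.785 to 1.08) and 1.04 times (0.900 to 1.21). A gene was counted as past 1.5-fold when its log2 difference reached that size and its interval excluded 1. Of the 4 keratins tested, only Krt14 was past it, in both genotype comparisons, where 3.44% and 3.41% of all 12362 tested genes were past it in the higher direction. None of the 4 was past 2-fold, against 2.27% and 1.9% of all tested genes in either direction.

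**Figure D3:**
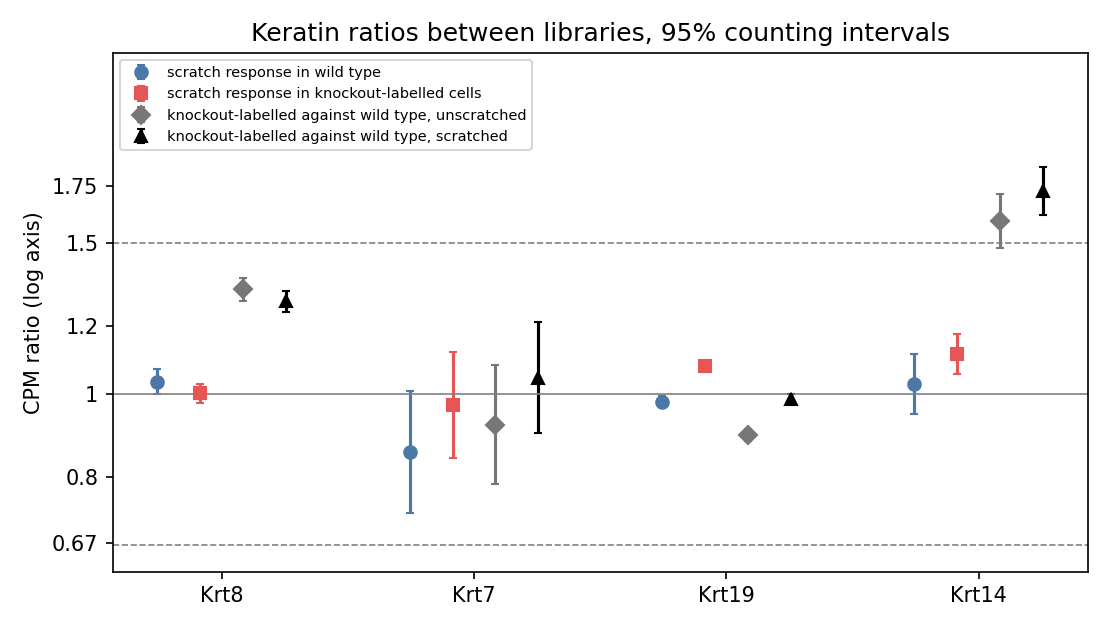
CPM ratios of the 4 tested keratins on a log axis, for the scratch responses and the genotype comparisons, with 95% counting intervals; dashed lines mark 1.5-fold in each direction. Krt14 lies above the upper line in both genotype comparisons, at 1.59 and 1.72, and Krt8 between 1 and that line.

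An additive model of genotype and scratch, fitted to all genes with edgeR's quasi-likelihood F-test, gave a test with 1 residual degree of freedom. That degree of freedom is the genotype difference in the scratch response, so the p-values speak of these 4 libraries and not of repeated cultures. Krt14 rose with the knockout label by 0.73 ± 0.05 on the log2 scale (SE, Benjamini-Hochberg adjusted p = 1.82e-06), and Krt8 by 0.38 ± 0.05 (adjusted p = 0.000258). Krt19 was at -0.09 ± 0.06 (adjusted p = 0.314) and Krt7 at -0.03 ± 0.10 (adjusted p = 0.882). Thus 2 of the 4 tested keratins rose and 0 fell, where 12.2% of all tested genes rose and 11.0% fell. The median effect was 0.18 over the 4 keratins and 0.00 over all tested genes. An effect at least as large in size as that of Krt14 was seen in 3.24% of the tested genes, and as that of Krt8 in 11.3%.

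The scratch was followed by little change in these keratins at 24 hours. Krt8 in scratched wild-type cells was at 1.03 times the unscratched value (1.00 to 1.07), and in knockout-labelled cells at 1.00 times (0.977 to 1.03). Krt14 stood at 1.03 times (0.948 to 1.11) and 1.11 times (1.05 to 1.18), and Krt7 at 0.856 times (0.726 to 1.01) and 0.970 times (0.841 to 1.12). Krt19 was at 0.979 times (0.965 to 0.994) in wild type and at 1.08 times (1.06 to 1.09) in knockout-labelled cells. No tested keratin of the 4 was past 1.5-fold in either direction after the scratch, where 2.55% and 1.25% of tested genes were. In the additive fit 0 of the 4 passed for the scratch in edgeR's quasi-likelihood test, where 1.04% of all tested genes passed. The lowest unadjusted p of the 4 in that edgeR test was 0.0677, for Krt14, whose scratch effect was 0.10 ± 0.05. DESeq2 and limma also called none of them. For the scratch, however, DESeq2 called only 36 of all 12362 tested genes and limma 0 of 14683, so neither adds support.

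The scratch responses of the genotypes differed by log2 0.14 for Krt19, with a 95% counting interval of 0.11 to 0.17. The difference was -0.05 for Krt8 (-0.11 to 0.01), 0.12 for Krt14 (-0.02 to 0.26) and 0.18 for Krt7 (-0.13 to 0.49). None of these reached 1.5-fold. Of all tested genes, 1.88% reached it with a counting interval that also excluded no difference.

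The rest of the keratin family was mostly undetected or nearly so. Of the 54 keratin genes in the count table, 29 had no read in any library, 41 had at most 3 reads in every library and 7 were tested. Beside the 4 members these were Krt10, Krt13 and Krt80. Krt13, a type I chain of stratified mucosa, stood at 1.82, 1.46, 2.85 and 3.45 CPM and rose with the knockout label by 0.95 ± 0.21 (adjusted p = 0.00669). Its ratio was 1.56 (1.09 to 2.27) without and 2.36 (1.67 to 3.41) after a scratch. DESeq2 did not call Krt13 (adjusted p = 0.204).

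Krt80 was lower with the knockout label. It stood at 68.6, 82.2, 61.2 and 71.3 CPM, lower in the knockout-labelled library of each pair and higher after the scratch in both genotypes. By edgeR it fell with the knockout label by 0.19 on the log2 scale (adjusted p = 0.0138) and rose after the scratch by 0.24 ± 0.05 (adjusted p = 0.0333). Neither call held with DESeq2 or limma (DESeq2 adjusted p = 0.294 and 0.714), though limma called 0 of all genes for the scratch. Krt10, a type I chain of differentiating epidermis, was at 0.01 ± 0.16 for the knockout label. Krt5, the usual partner of Krt14, had 0 reads in all 4 libraries. Krt15, another basal chain, was singled out after its values were seen, with 3, 5, 21 and 18 reads, and was not tested.

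Other markers were set beside the Krt14 result, in a fit where 12.2% of all tested genes rose with the knockout label and 11.0% fell. Of 9 basal cell markers, 5 were tested and 2 rose with the knockout label, Krt14 itself and Trp63, the transcription factor p63 that maintains basal cells. Trp63 stood at 1.11, 1.39, 3.22 and 2.74 CPM and rose by 1.23 ± 0.23 (edgeR adjusted p = 0.00213), a call not held by DESeq2 (adjusted p = 0.0744). The other tested basal markers did not pass: Ngfr went the other way (-0.60 ± 0.29), and Aqp3 and Dlk2 were at 0.26 ± 0.21 and 0.56 ± 0.32. The basal list summed to 49.0, 49.96, 77.0 and 84.5 CPM, mostly Krt14, Krt5 was at 0, and Col17a1 had 2 reads in each library. Club and goblet cell markers summed to 11.4, 10.6, 82.7 and 62.6 CPM, with 2 of 6 tested and both rising, led by the mucin Muc5b at 10.3, 9.59, 77.3 and 58.2 CPM. The club cell genes Scgb3a2 and Cyp2f2 were at 0 reads, and Scgb1a1 had at most 2. Alveolar type 2 markers summed to 394, 379, 519 and 478 CPM, and 3 of 6 tested rose (Sftpb, Sftpc and Etv5). Of those that did not pass, Napsa went the other way (-0.48 ± 0.26), and Abca3 and Lpcat1 were at 0.08 ± 0.05 and 0.003 ± 0.054. Of the transitional list, which includes Krt8 itself, 7 of 8 were tested, 3 rose and 0 fell. These were Krt8, the cell cycle inhibitor Cdkn1a (0.65 ± 0.12) and the growth factor Hbegf (0.20 ± 0.06). The other tested transitional markers did not pass. Sfn went the other way (-0.40 ± 0.23), Lgals3 was at -0.003 ± 0.056, and Areg and Itgb6 were at 0.30 ± 0.27 and 0.21 ± 0.27. Cldn4 was at 0 reads. The list summed to 479, 497, 558 and 587 CPM, of which Krt8 itself made up 249, 257, 329 and 329.9 CPM. Fibroblast markers summed to 2889, 2823, 2919.8 and 2652 CPM, nearly all of it Dcn at 2865, 2805, 2717 and 2471 CPM, whose effect of -0.13 ± 0.06 did not pass. The other 3 of the 4 tested rose, Pdgfra, Pdgfrb and Col1a1, the last at 21.4, 16.4, 197 and 176 CPM, while Col1a2 had at most 1 read, Lum at most 2 and Col3a1 at most 6. In the alveolar type 1 list Hopx rose (0.27 ± 0.05) and Pdpn fell (-0.30 ± 0.05) among 7 tested. Among 4 mesothelial genes, all tested, Lrrn4 rose (0.54 ± 0.10). Of 8 pan-epithelial genes tested Foxa1 fell (-0.44 ± 0.06), and of 3 ciliated genes tested Ccdc39 fell (-0.63 ± 0.20). Apart from Krt8, Krt14, Trp63 and Sfn, these marker results rest on edgeR's test alone and were not recomputed in other settings. The part of such cells or states in the Krt8 and Krt14 values was not tested.

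Other intermediate filament genes included 3 that rose with the knockout label and 0 that fell, among 8 tested of 16 listed, beside 12.2% of all tested genes that rose and 11.0% that fell. Vimentin (Vim), the filament of mesenchymal and many cultured cells, stood at 723, 709, 946 and 931 CPM and rose by 0.39 ± 0.06 (adjusted p = 0.000365). Nestin (Nes) rose by 0.37 ± 0.06 and the linker filament synemin (Synm) by 0.43 ± 0.06. The nuclear lamins Lmna, Lmnb1 and Lmnb2 were at 0.15 ± 0.06, -0.07 ± 0.05 and 0.07 ± 0.05, and syncoilin (Sync) was at -0.15 ± 0.27. These 4 did not pass. For the list the median was 0.11, against 0.00 over all tested genes.

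Genes that anchor keratins to desmosomes and hemidesmosomes went in both directions. Of 21 listed, 15 were tested, 2 rose and 4 fell, or 13.3% and 26.7% beside 12.2% and 11.0% of all tested genes. The median was 0.02, against 0.00 over all. The integrin chain Itga6 of hemidesmosomes rose by 0.88 ± 0.10 (adjusted p = 5.97e-05), from 7.69 and 9.84 CPM to 15.3 and 16.9 CPM, and the desmosomal plakophilin Pkp1 by 0.46 ± 0.11. The desmosome-associated Perp had an effect of -0.39 ± 0.05 and fell in this test, as did plakoglobin (Jup, -0.21 ± 0.06). Desmoplakin (Dsp, -0.17 ± 0.05), which ties keratins to the desmosome, and the hemidesmosomal partner of Itga6, Itgb4 (-0.20 ± 0.06), also fell and were named after their values were seen. DESeq2 did not call Pkp1, Dsp or Itgb4, and limma called none of these 3 nor Jup. The abundant linkers plectin (Plec), periplakin (Ppl) and envoplakin (Evpl) were at 0.05 ± 0.07, -0.09 ± 0.06 and -0.10 ± 0.05 and did not pass, nor did dystonin (Dst, 0.21 ± 0.10).

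Of 19 genes of keratin binding and turnover, all tested, 1 rose and 0 fell, beside 12.2% and 11.0% of all tested genes. This was Fbf1, a keratin-binding protein of junctions and cilia, at 0.22 ± 0.05, and the median was -0.03. Neither DESeq2 nor limma called Fbf1. The chaperone Hspa8, the most abundant of the list, was at 0.04 ± 0.06. Ywhae, Sqstm1, Casp6, Fam83h and Sfn, at 0.09 ± 0.06, -0.05 ± 0.05, 0.21 ± 0.11, -0.18 ± 0.09 and -0.40 ± 0.23, did not pass. Of 27 regulators known to act on keratin promoters, 24 were tested, 2 rose and 7 fell, or 8.33% and 29.2% beside 12.2% and 11.0% of all tested genes. The median was -0.13, against 0.00 over all. Trp63 and the AP-1 member Fosl1 (0.70 ± 0.22) rose. The AP-1 member Jun stood at 202, 156, 116 and 120 CPM (119.6 in the last) and had an effect of -0.59 ± 0.08, and Sp1 and Gata6 had effects of -0.17 ± 0.05 and -0.19 ± 0.06. These 3 were among the 7 that fell. Klf4, Rela and Tfap2a, at -0.11 ± 0.06, -0.16 ± 0.06 and 0.65 ± 0.32, did not pass. Neither DESeq2 nor limma called Fosl1, Sp1 or Gata6, and Jun missed the threshold narrowly with DESeq2 (adjusted p = 0.0504). Across these 4 lists, 0 of the 65 genes tested passed for the scratch in edgeR's test, where 1.04% of all tested genes passed. An unadjusted p under 0.05 in that test was seen for 9 of the 65, beside 1847 of all 12362 tested genes. DESeq2 and limma also called 0 of the 65. For the scratch, however, DESeq2 called only 36 of all tested genes and limma 0, so neither adds support.

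**Figure D4:**
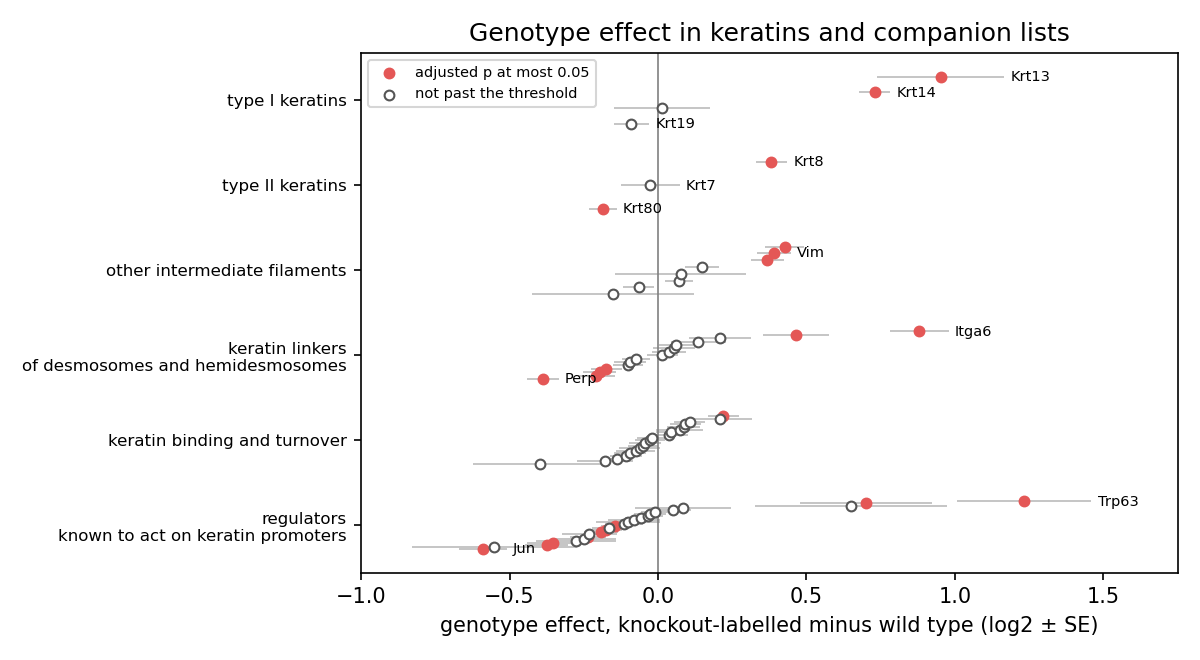
Genotype effect (knockout-labelled minus wild type, log2 ± SE of the additive edgeR fit) of every tested gene in the keratin and companion lists, with genes at an adjusted p of at most 0.05 filled. Krt14 (0.73) and Krt8 (0.38) are filled, Krt19 and Krt7 are open and near 0, and the linker and regulator lists hold filled genes on both sides of 0.

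Of the 5 keratins, Krt14 and Krt18 varied by 1.5-fold or more between their highest and lowest library. Among 9286 other genes with a mean of at least 10 CPM, those whose log2 CPM followed Krt14 most closely over the 4 libraries were Samd4, Dlgap4 and P3h3, with root mean square differences of 0.05, 0.06 and 0.06. Samd4, for example, stood at 9.06, 9.74, 15.1 and 17.8 CPM. The nearest genes to Krt18 were Commd1, Nr1h3 and Pfdn4, at differences of 0.21, 0.22 and 0.23. With 4 to 10 reads of Krt18 per library, that pattern is within counting error. Both rankings rest on 4 points.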

How the data were processed

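The authors deposited raw counts for 46078 Ensembl genes and an RPKM table of 14844 genes, which leaves 161 blank. The build mm10 and the tools HTSeq 0.11.3, STAR 2.7.9a, edgeR 3.32.1 and Trimmomatic 0.39 are listed, per the submitters' processing notes, with no role given. Libraries were made with a strand-specific kit per the labels' protocols, but the sources used here give neither the strand setting of the counting nor the annotation release. Columns were matched by genotype and the letter for scratch, and N was taken to mean unscratched, the remaining condition, on which every scratch statement rests.

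Counts were scaled with TMM, and 12362 genes with at least 1 CPM in at least 1 library were tested (prior count 2). The additive fit had a biological coefficient of variation of 5.48% and 11.6 prior degrees of freedom. Genes passed at an adjusted p of at most 0.05. Each SE given for this fit is the size of the effect divided by the square root of its F statistic. The fold rule and the fit were tested on simulated data, in which genotype effects were equal in both scratch states. That run says nothing of variation between real cultures. Reads carry no molecular identifiers, so intervals cover counting error only and may be too narrow. The lengths behind the authors' RPKM were close to those of the longest coding transcripts (1577 against 1576 bases for Krt19).

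The members and lists were chosen with earlier results of these data known. Named were the 5 keratins and, in each list of companion genes, the 4 genes with the highest mean CPM and the 4 with the strongest genotype effect; similar genes were the 3 nearest. Cell type markers were named outside this rule, after their values were seen. Alternatives were other scalings, filters of none or 5 CPM, a prior count of 0.5, log2 of the authors' RPKM with pseudocounts of 0.1 and 1, DESeq2 and limma, and lengths of all annotated exons. Software was limma 3.58.1, DESeq2 1.42.0 and edgeR 4.0.16 in R 4.3.3, and scipy 1.17.1 in Python 3.11.15.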

Additional observations from a re-analysis of the deposited data

Results flagged for a closer look

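Krt19 stood lower after the scratch in wild type (0.979 times) and higher in knockout-labelled cells (1.08 times), and the responses differed by log2 0.14. Both intervals excluded 1 by counting error alone. With 1 library per condition the difference was not tested against replicates.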

How the results depend on the processing

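Krt7, Krt8, Krt14 and Krt19 kept their side of the threshold in all 196 recomputed values. The genotype effect of Krt14 ranged from 0.70 to 0.73 and that of Krt8 from 0.37 to 0.38, with adjusted p from 1.09e-30 to 0.00658 and from 7.48e-10 to 0.0244. The near-zero scratch response of Krt8 in knockout-labelled cells ranged from -0.00 to 0.01. For the companion genes and Krt13 and Krt80, 33 of 534 recomputed values lost their call, 12 of them with DESeq2, and 2 gained one, both for Rela. No paired analysis was possible because the labels carry no replicate numbers; the additive fit itself compares the genotypes within each scratch state.

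Counts over all genes depended on the setting. The filters and the authors' RPKM also changed which genes were counted, and how much of each change this made was not tested. With the authors' RPKM a gene was counted as past 1.5-fold on fold size alone, without an interval, over 14683 genes. Those counts therefore follow a looser rule than the others. Past 1.5-fold, the 315 genes of the wild-type scratch response became 81 with a filter of 5 CPM. With the authors' RPKM they became 879 or 142 at pseudocounts of 0.1 or 1. The 154 of the knockout-labelled response became 358 without a filter, 26 at 5 CPM and 503 or 57 with RPKM. The genotype comparisons' 800 and 649 became 354 and 278 at 5 CPM, 1465 and 1114 with RPKM at 0.1, and 330.0 and 211 at 1. The 232 of the difference of responses became 85 at 5 CPM and 1167 with RPKM at 0.1. The additive genotype fit called 2863 genes, DESeq2 965, and limma 1382 and 1194 at the 2 pseudocounts. For the scratch it called 128, or 312 with total counts and 493 without a filter, DESeq2 36 and limma 0 at either pseudocount (1660 and 1645 at an unadjusted p under 0.05, against 1847 by edgeR and 465 by DESeq2). Per length of all annotated exons, the type I to type II ratio was 5.11, 4.80, 3.66 and 3.92.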
